A study of Mus musculus with 2 samples.

Results

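Platelet-derived growth factor (PDGF) ligands and receptors were followed across the cell classes of the postnatal mouse lung through 6 genes, the 2 receptor genes *Pdgfra* and *Pdgfrb* and the 4 ligand genes *Pdgfa*, *Pdgfb*, *Pdgfc* and *Pdgfd*. The genes were picked by symbol as the members of the family, and they are 6 of the 32285 genes listed in the count matrices. All 6 were detected in both libraries. Each library was made from the lung of 1 mouse at P14, and both mice carried *Gli1 creERT/+* with *Hhip flox/flox*. The *Gli1 HHIPCKO* mouse received tamoxifen, which activates the Cre made in *Gli1*-expressing cells so that they and their progeny lose *Hhip*, and the control mouse received oil at the same times. Cells free of CD31 and CD45 were parted by CD326 into a negative, stromal fraction and a positive, epithelial one, which were mixed 3:1 before capture. Endothelial and immune cells are therefore only those that escaped the sort, and the share of each class in a library depends on the sort and the mix.

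PDGF ligands are secreted dimers that bind a pair of receptor tyrosine kinases and are known to drive proliferation and migration of mesenchymal cells. In the developing lung, PDGF-A made by epithelium acts on PDGFRα-positive mesenchymal progenitors that give rise to alveolar myofibroblasts, while PDGF-B made by endothelium recruits PDGFRβ-positive pericytes to vessels. HHIP is a membrane protein that binds Hedgehog ligands and limits Hedgehog signaling.

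The control library held 43291709 unique molecular identifiers (UMIs) in 10999 cells, with a median of 3531 UMIs per cell. The *Gli1 HHIPCKO* library held 52338969 UMIs in 12350 cells, with a median of 3720. A filter on gene number and mitochondrial UMIs kept 10917 control and 12115 *Gli1 HHIPCKO* cells, and 193 cell barcodes occurred in both libraries. Cells were clustered with the 6 PDGF genes, 51 genes of their pathway and *Hhip*, *Igf1*, *Acta2* and *Cdkn1a* held out, and clusters were named from marker genes as alveolar myofibroblast (ALMF)-like, ductal myofibroblast (DMF)-like and so on. Thresholds of the naming rule were set after the clusters had been seen, and 14 of 40 clusters stayed unnamed, and these held 18.6% of control cells and 21.7% of those from *Gli1 HHIPCKO*. Levels are UMIs of a gene per 1000000 UMIs of a class (CPM), and ratios are *Gli1 HHIPCKO* over control on the log2 scale. With 1 mouse per group no test was possible. Levels carry exact Poisson intervals and ratios and shares carry exact binomial ones, all at 95%, and they cover counting error only, not the spread between mice.

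*Hhip* (ENSMUSG00000064325, chr8:79965851-80058006, minus strand of GRCm38), the deleted gene, was at 332 CPM over all control cells and 89.3 CPM over all *Gli1 HHIPCKO* cells, for a log2 ratio of −1.89 (−1.94 to −1.85). *Hhip* in DMF-like cells was at 1668 and 277 CPM, for a log2 ratio of −2.59 (−2.66 to −2.52), and in ALMF-like cells at 232 and 131 CPM, for a log2 ratio of −0.82 (−1.13 to −0.52). The level was lower in the library labelled as deleted, but whether the counted reads lie in the deleted exon was not established. *Xist*, which is transcribed from the inactive X chromosome, had UMIs in 0.109% of the cells of the control and 55.7% of those of the *Gli1 HHIPCKO* library. The deletion, the sex of the mice and any other difference between these 2 animals cannot be told apart.

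Levels were compared in 13 classes with at least 50 cells in each library. Names rest on whole marker lists, and the own markers of some classes had a higher mean in another. ALMF markers had a mean of 724 and 835 CPM in ALMF-like but 1130.4 and 1269 CPM in pericyte-like cells, where 1 of them, *Gucy1a1*, was at 6334 and 7947 CPM. Markers of vascular smooth muscle had 131 and 187 CPM in their class but 296 and 285 CPM in pericyte-like cells. DMF markers had 729.6 CPM in *Gli1 HHIPCKO* DMF-like but 886 CPM in peribronchial smooth muscle-like cells, and adventitial fibroblast markers 1194 CPM in control adventitial fibroblast-like but 1380.2 CPM in mesothelial-like cells. Single markers highest in their own class were 5 control and 7 *Gli1 HHIPCKO* of 11 for ALMF and 3 and 4 of 8 for vascular smooth muscle. For DMF they were 5 and 2 of 12, and for adventitial fibroblasts 9 of 11 in each library. The stromal classes held 1018 control and 253 *Gli1 HHIPCKO* cells named ALMF-like, 1694 and 2149 named DMF-like, 283 and 1271 alveolar fibroblast-like cells, 536 and 552 adventitial fibroblast-like cells, and 180 and 485 peribronchial smooth muscle-like cells. Vascular smooth muscle-like cells numbered 261 in each library, pericyte-like cells 425 and 715, mesothelial-like cells 335 and 345, alveolar type 2 (AT2)-like cells 2936 and 2788 and ciliated-like cells 256 and 128. Endothelial-like cells numbered 155 and 100, immune-like cells 532 and 212 and red cell-like cells 216 and 194. DMF-like cells fell into 3 clusters that the libraries hardly shared. The cluster led by *Efnb2*, *Enpp2* and *Igfbp5* held 98.4% of the control DMF-like cells, the one led by *Nnat*, *P4ha3* and *Thbs2* held 74.0% of the *Gli1 HHIPCKO* DMF-like cells, and one led by the stress and immediate early genes *Socs3*, *Ier3* and *Zfp36* held another 24.3% of these.

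*Pdgfra* (ENSMUSG00000029231, chr5:75152292-75198215, plus strand), which encodes the receptor for PDGF-A, PDGF-B and PDGF-C, was a gene of the fibroblast classes in both libraries. In the control library it was at 1369 CPM (1328 to 1410) in ALMF-like, 867 CPM (809 to 928) in alveolar fibroblast-like, 510 CPM (490 to 530) in DMF-like and 390 CPM (363 to 418) in adventitial fibroblast-like cells. The *Gli1 HHIPCKO* levels in the same order of classes were 1656 CPM (1567 to 1748), 866 CPM (840 to 892), 690 CPM (671 to 710) and 402 CPM (374 to 431). These 4 classes held the same first 4 places in both libraries, and each differed from the next beyond counting error. In the control library, 7 further classes from endothelial-like at 102 CPM down to red cell-like at 68.1 CPM were not separated from their neighbours. Pericyte-like cells followed at 22.7 CPM and AT2-like cells were last at 3.95 CPM, each below the class before it. In the *Gli1 HHIPCKO* library, neighbours were not separated from red cell-like at 196 CPM down to vascular smooth muscle-like cells at 76.8 CPM. Below them stood peribronchial smooth muscle-like cells at 50.9 CPM, pericyte-like cells at 15.8 CPM and AT2-like cells at 4.54 CPM, each beyond counting error.

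**Figure D1:**
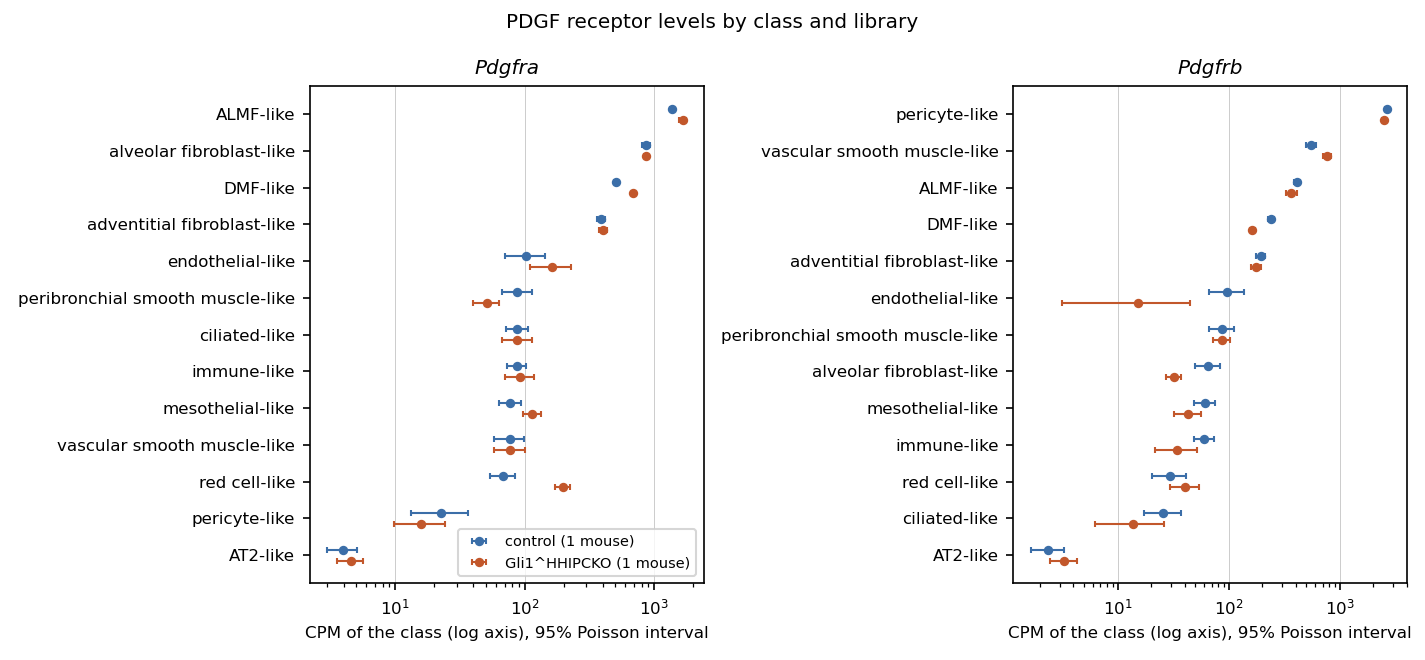
Levels of *Pdgfra* and *Pdgfrb* (CPM of the class, log axis) in 13 cell classes of the control and the *Gli1 HHIPCKO* library, 1 mouse each, with bars for 95% Poisson intervals. *Pdgfra* is highest in ALMF-like cells (1369 and 1656 CPM) and *Pdgfrb* in pericyte-like cells (2651 and 2482 CPM) in both libraries.

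Between the libraries, *Pdgfra* was higher in *Gli1 HHIPCKO* cells of both myofibroblast classes when each was taken on its own. In ALMF-like cells 4357 control and 1301 *Gli1 HHIPCKO* UMIs gave a log2 ratio of 0.27 (0.18 to 0.36). DMF-like cells, with 2563 and 4989 UMIs, gave one of 0.44 (0.37 to 0.51). Within the DMF-like clusters *Pdgfra* was at 503 CPM in the control cells of the *Efnb2* cluster, and at 672 and 735 CPM in the *Gli1 HHIPCKO* cells of the *Nnat* and *Socs3* clusters. The 36 *Gli1 HHIPCKO* cells that lay in the *Efnb2* cluster had *Pdgfra* at 610 CPM (474 to 771). Markers of alveolar fibroblasts, another *Pdgfra*-rich class, were led by *Gyg* and summed to 171 control and 481 *Gli1 HHIPCKO* CPM in DMF-like cells (10 of 10 detected in each), and to 123 CPM (10 of 10) and 179 CPM (9 of 10, *Ces1d* at 0) in ALMF-like cells. Adventitial fibroblast markers summed to 350.2 and 287 CPM in DMF-like cells (11 of 11 detected, led by *Col14a1*), and in ALMF-like cells to 65.3 CPM (11 of 11, led by *Htra3*) and 137 CPM (10 of 11, *Ccl11* at 0, led by *Lum*). Pericyte markers in ALMF-like cells summed to 208 CPM (8 of 8, led by *Abcc9*) and 342 CPM (7 of 8, *Vtn* at 0, led by *Lamc3*), and *Hbb-bs*, a red cell gene, was at 371 and 1718 CPM there. The part of these markers in the *Pdgfra* ratios was not tested.

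The *Pdgfra* ratio stayed above 0 in 5 of 8 alternatives in ALMF-like and in 6 of 9 in DMF-like cells, among them naming fibroblasts cell by cell, which gave 0.19 and 0.31. It turned in the others. In ALMF-like cells it was −0.08 without the filter on cells, −0.03 with the PDGF and pathway genes among the variable genes and −0.01 at the lower clustering resolution of 0.5. In DMF-like cells it was −0.29 without the filter, −0.17 with those genes among the variable genes and −0.78 with the libraries clustered separately. Over the same settings the number of *Gli1 HHIPCKO* ALMF-like cells went from 68 at the lower resolution to 1006 without the filter, against 253 as reported. With ALMF-like and DMF-like cells joined, an alternative chosen after seeing the data, *Pdgfra* was at 843 CPM in 2712 control cells and 785 CPM in 2402 *Gli1 HHIPCKO* cells. That log2 ratio was −0.10 (−0.15 to −0.05), and it lay between −0.70 and −0.06 in the 8 alternatives. ALMF-like cells, where *Pdgfra* was highest, made up 37.5% of this joint class in the control and 10.5% in the *Gli1 HHIPCKO* library. These shares depended on the setting, and without the filter they were 37.8% and 35.2%, with a joint *Pdgfra* ratio of −0.23.

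**Figure D2:**
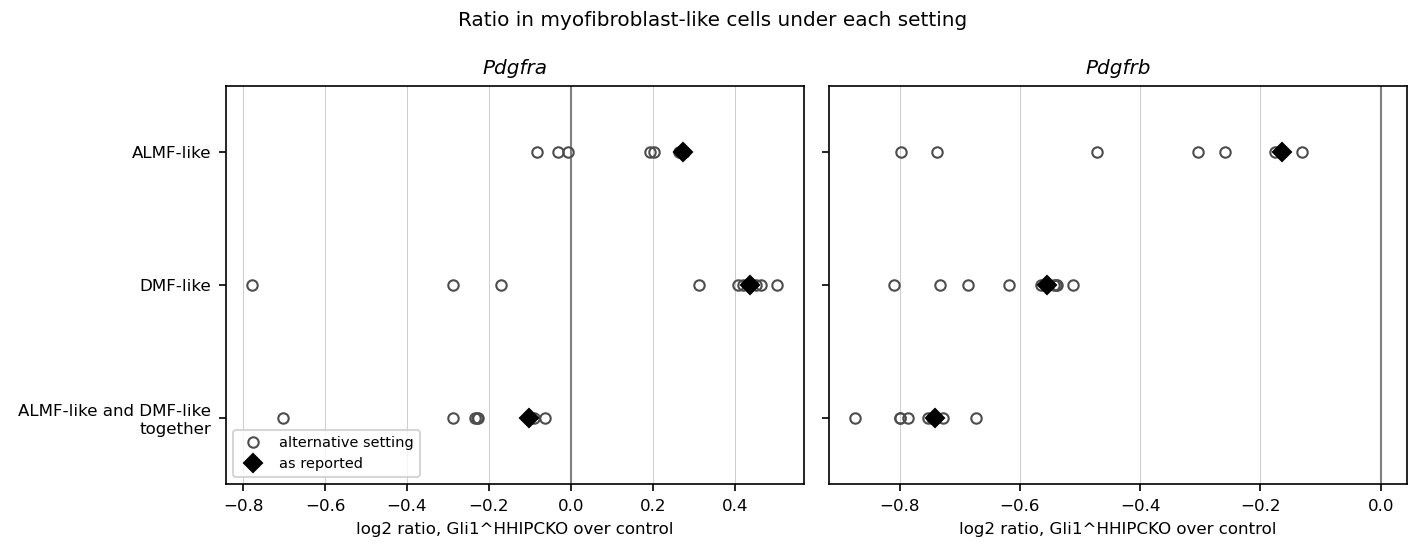
Log2 ratio (*Gli1 HHIPCKO* over control, 1 mouse each) of *Pdgfra* and *Pdgfrb* in ALMF-like cells, DMF-like cells and both together, as reported (diamonds) and under each alternative setting (open circles). The *Pdgfra* ratio lies on both sides of 0 in each class and below 0 for the joint class, while every *Pdgfrb* ratio shown lies below 0.

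Alveolar and adventitial fibroblast-like cells, the other *Pdgfra*-rich classes, gave ratios whose intervals included 0. The log2 ratio was −0.00 (−0.11 to 0.11) in alveolar fibroblast-like cells and 0.04 (−0.10 to 0.19) in adventitial fibroblast-like cells, with alternatives between 0.00 and 0.32 and between 0.04 and 0.22. In each class the interval included 0 in only 4 of the 7 alternatives that gave one. Adventitial fibroblast-like cells were made of 2 clusters that differed in the receptor. *Pdgfra* was at 283 control and 368 *Gli1 HHIPCKO* CPM in the cluster led by *Serpinf1* and *Dcn*, and at 578 and 539 CPM in the one led by *Aqp1* and *C1qtnf3*. The first held 65.9% of control and 81.0% of *Gli1 HHIPCKO* cells of the class, and the second 34.1% and 19.0%.

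Outside the fibroblasts, *Pdgfra* was low, and some of its ratios excluded 0. In peribronchial smooth muscle-like cells it was at 87.9 and 50.9 CPM from 60 and 78 UMIs, for a log2 ratio of −0.79 (−1.29 to −0.28) that moved to −1.95 without the filter on cells and to −0.25 as a mean over cells, and whose interval included 0 with doublets left out. All 10 markers of that class were detected in it in both libraries, but their summed level was 17957 CPM in the control and 4584 CPM in the *Gli1 HHIPCKO* library, with the cardiac actin gene *Actc1* as the most abundant at 9153 and 948 CPM. All 12 DMF markers were detected there too, at 7078 and 10631 CPM in sum, with *Aspn* as the most abundant at 2419 and 3401 CPM. Alveolar fibroblast markers were at 259 CPM in each library there, with 9 of 10 detected in the control (*Crabp1* at 0) and 10 of 10 in the other. The red cell gene *Hbb-bs* was at 284 and 2948 CPM there. AT2 markers, 8 of 8 detected and led by *Sftpc*, were at 2936 and 1644 CPM in sum. Mesothelial-like cells had *Pdgfra* at 77.6 and 114 CPM, for a log2 ratio of 0.56 (0.19 to 0.93). That ratio was 0.11 with doublets left out and 0.07 with the PDGF and pathway genes among the variable genes, both with intervals that included 0. Alveolar fibroblast markers in them, 10 of 10 detected and led by *Npnt*, were at 967 and 1897 CPM in sum, and *Hbb-bs* at 1403 and 4733 CPM. In red cell-like cells, which should lack the receptor, *Pdgfra* was at 68.1 and 196 CPM from 81 and 223 UMIs, for a log2 ratio of 1.52 (1.15 to 1.91), between 1.08 and 1.86 in the alternatives. The same 10 alveolar fibroblast markers were all detected in red cell-like cells at 390 and 1301 CPM in sum, with *Npnt* at 123 and 395 CPM. The part of these markers in the *Pdgfra* ratios was not tested.

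*Pdgfrb* (ENSMUSG00000024620, chr18:61045150-61085061, plus strand), which encodes the receptor for PDGF-B and PDGF-D, was a gene of the mural cells. Control levels were 2651 CPM (2536 to 2770) in pericyte-like, 549 CPM (497 to 606) in vascular smooth muscle-like, 411 CPM (389 to 434) in ALMF-like and 240 CPM (226 to 254) in DMF-like cells. *Gli1 HHIPCKO* levels in these classes were 2482 CPM (2398 to 2568), 764 CPM (702 to 831), 367 CPM (325 to 411) and 163 CPM (154 to 173). The first 3 places were held by the same classes in both libraries, each beyond counting error. Adventitial fibroblast-like cells came next to DMF-like cells, at 193 control and 177 *Gli1 HHIPCKO* CPM, below them in the control library and not separated from them in the other. Of the rest, control levels from endothelial-like at 96.3 CPM to immune-like cells at 60.2 CPM were not separated from their neighbours. Red cell-like and ciliated-like cells, below them at 29.4 and 25.7 CPM, were not separated from each other. In the *Gli1 HHIPCKO* library peribronchial smooth muscle-like cells at 86.7 CPM stood above 6 classes that were not separated from their neighbours, from mesothelial-like at 43.0 CPM to ciliated-like cells at 13.8 CPM. AT2-like cells were last in both libraries, at 2.38 and 3.28 CPM.

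In DMF-like cells 1205 control and 1179 *Gli1 HHIPCKO* UMIs gave a log2 ratio of −0.56 (−0.67 to −0.44), and all 9 alternatives gave a ratio between −0.81 and −0.51. *Pdgfrb* was at 240 CPM in the control cells of the *Efnb2* cluster and at 163 and 159 CPM in the *Gli1 HHIPCKO* cells of the *Nnat* and *Socs3* clusters. The 36 *Gli1 HHIPCKO* cells in the *Efnb2* cluster were at 256 CPM (172 to 368), so the lower level was not seen in them at this depth. The ratio in ALMF-like cells was −0.16 (−0.35 to 0.02) and lay between −0.80 and −0.13 in the alternatives. With both myofibroblast classes joined the *Pdgfrb* ratio was −0.74 (−0.84 to −0.65), between −0.87 and −0.67 in the 8 alternatives. ALMF-like cells, with more *Pdgfrb* than DMF-like cells, made up 37.5% of this joint class in the control and 10.5% in the *Gli1 HHIPCKO* library. Without the filter on cells these shares were 37.8% and 35.2%, with a joint *Pdgfrb* ratio of −0.80. The part of the shares in the joint ratio was not tested. Markers of pericytes, where *Pdgfrb* is highest, were led by *Abcc9* in DMF-like cells and summed to 152 control CPM with 7 of 8 detected (*Vtn* at 0) and 143 *Gli1 HHIPCKO* CPM with 8 of 8, and their part in the *Pdgfrb* ratio was not tested.

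In the mural classes the *Pdgfrb* ratio was below 0 in pericyte-like and above 0 in vascular smooth muscle-like cells. In pericyte-like cells the *Pdgfrb* ratio was −0.10 (−0.18 to −0.01), and its interval included 0 in 3 of the 6 alternatives that gave one, among them −0.07 (−0.15 to 0.01) with mitochondrial, ribosomal, haemoglobin and surfactant genes left out of the total. The red cell gene *Hbb-bs* was at 647 control and 11592 *Gli1 HHIPCKO* CPM in this class, and AT2 markers, 8 of 8 detected and led by *Sftpc*, at 4113 and 2612 CPM in sum. In vascular smooth muscle-like cells the *Pdgfrb* ratio was 0.48 (0.29 to 0.67), from 401 and 557 UMIs, and between 0.39 and 0.49 in the alternatives. Pericyte markers in the vascular smooth muscle-like cells, 8 of 8 detected in each library, were at 1212 and 2493 CPM in sum, with *Cox4i2* as the most abundant at 549 and 1338 CPM. The part of these markers in the *Pdgfrb* ratios was not tested.

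Adventitial fibroblast-like cells, at 193 and 177 CPM, gave a *Pdgfrb* ratio of −0.12 (−0.34 to 0.09). In the remaining classes the levels of *Pdgfrb* were low. Alveolar fibroblast-like cells had 64.8 and 32.0 CPM, for a log2 ratio of −1.02 (−1.45 to −0.57) that moved to −1.89 with the libraries clustered separately and to −0.52 (−1.45 to 0.53) without the filter on cells. Most of these UMIs came from a cluster led by *Cpm* and *Epha1*, with a high median of 6436 UMIs per cell and DMF as its second class, where *Pdgfrb* was at 161 and 86.9 CPM, against 19.2 and 9.99 CPM in the largest cluster of the class. DMF markers in alveolar fibroblast-like cells, 12 of 12 detected and led by *Hmcn1*, were at 1612 and 1911 CPM in sum, and 8 of 8 pericyte markers at 74.2 and 70.9 CPM. *Hbb-bs* was at 334 and 1741 CPM in this class. In endothelial-like cells 32 control and 3 *Gli1 HHIPCKO* UMIs gave a log2 ratio of −2.66 (−5.02 to −0.99), which lay between −3.72 and −2.63 in the alternatives. Immune-like cells had *Pdgfrb* at 60.2 and 34.1 CPM, for a log2 ratio of −0.82 (−1.54 to −0.15) that ranged from −1.62 to −0.20 over the alternatives, with an interval that included 0 in 4 of the 7 that gave one. Pericyte markers were at 470 CPM with 8 of 8 detected and at 142 CPM with 7 of 8 detected (*Vtn* at 0) in endothelial-like cells, and at 135 CPM with 8 of 8 and 47.5 CPM with 7 of 8 detected (*Trpc6* at 0) in immune-like cells. *Cox4i2* led them in both classes. Alveolar fibroblast markers, 10 of 10 detected, were at 771 and 1773 CPM in endothelial-like and at 391 and 1354 CPM in immune-like cells. Adventitial fibroblast markers, 11 of 11 detected, were at 650 and 1297 CPM in endothelial-like and at 673 and 578 CPM in immune-like cells. Club cell markers in immune-like cells were at 5147 and 122 CPM. The part of these markers in the *Pdgfrb* ratios was not tested.

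**Figure D3:**
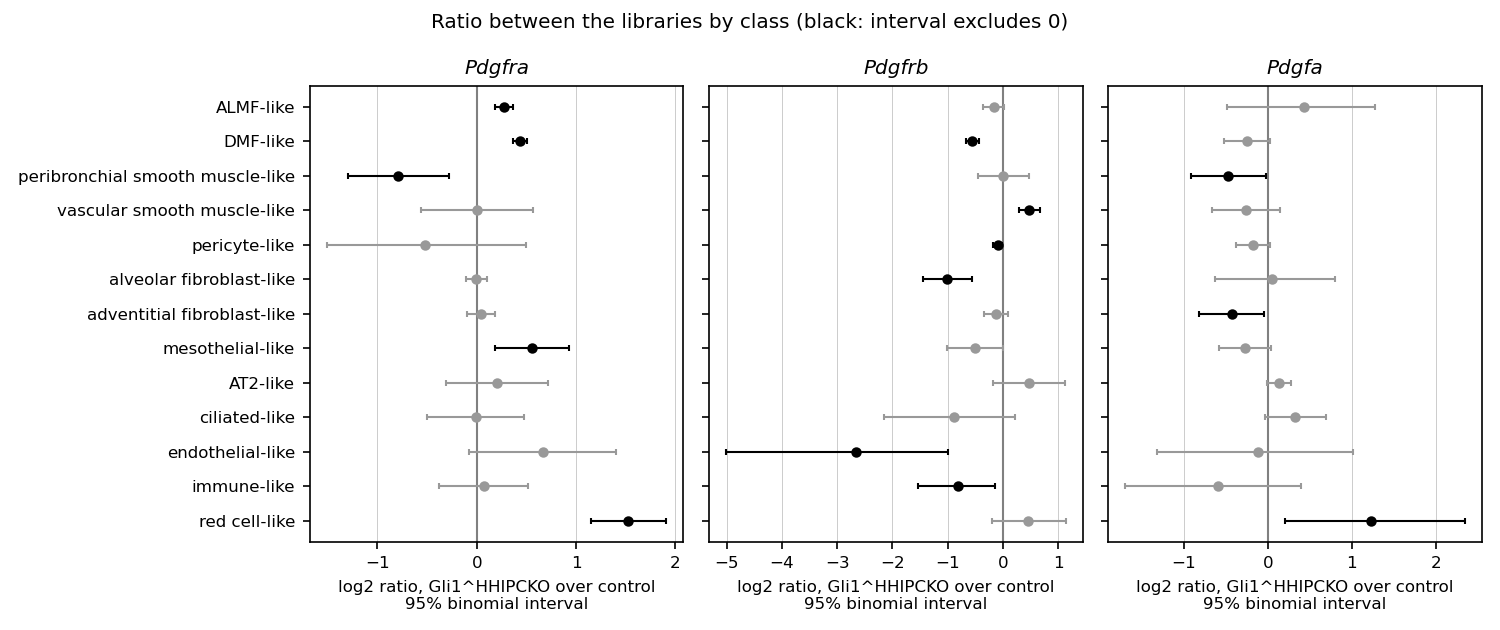
Log2 ratio (*Gli1 HHIPCKO* over control, 1 mouse each) of *Pdgfra*, *Pdgfrb* and *Pdgfa* in 13 cell classes with bars for 95% binomial intervals, black where the interval excludes 0 and grey where it includes 0. Ratios lie on both sides of 0 for each gene.

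Receptor detection per cell followed the levels by class. To set cells of different depth side by side, each cell was thinned to 2000 UMIs, which left out 130 control and 35 *Gli1 HHIPCKO* ALMF-like, 295 and 248 DMF-like, 263 and 433 pericyte-like, 10 and 13 red cell-like and 90 and 46 AT2-like cells. *Pdgfra* was then found in 85.9% of control and 92.7% of *Gli1 HHIPCKO* ALMF-like cells (90.6% and 96.0% unthinned) and in 50.8% and 57.1% of DMF-like cells (57.6% and 66.0% unthinned). *Pdgfrb* was found in 100% and 95.7% of pericyte-like cells (96.2% and 94.97% unthinned), in 52.8% and 44.0% of ALMF-like cells (62.6% and 56.1% unthinned) and in 35.5% and 26.0% of DMF-like cells (45.2% and 37.0% unthinned). Free RNA and doublets can give UMIs to cells that do not express a gene, and red cell-like and AT2-like cells, which should lack both receptors, were read beside these shares. The source of their UMIs was not tested, and the 2 classes differ. *Pdgfra* was found in 6.80% and 18.8% of thinned red cell-like cells (14.8% and 28.4% unthinned) and *Pdgfrb* in 4.37% and 5.52% (7.87% and 10.8% unthinned). Unthinned medians were 5006 and 5262 UMIs per red cell-like cell, against 3017 and 3117 per ALMF-like, 2797 and 3159 per DMF-like and 1699 and 1806 per pericyte-like cell. AT2-like cells, at medians of 4838 and 5745 UMIs, had *Pdgfra* in 1.94% and 2.73% and *Pdgfrb* in 1.02% and 1.87% of cells unthinned. All the myofibroblast and pericyte shares lay above these.

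Both receptors were often found in 1 cell in the myofibroblast classes. Among thinned ALMF-like cells 46.1% (42.7% to 49.4%) of control and 40.8% (34.2% to 47.7%) of *Gli1 HHIPCKO* cells had UMIs of both, and the products of the single shares were 45.4% and 40.8%. Among DMF-like cells the share was 21.0% (18.9% to 23.2%) in the control library, above the product of 18.1%, and 15.7% (14.1% to 17.4%) in the *Gli1 HHIPCKO* library, where the product was 14.8%. Pericyte-like cells with both receptors were few, 4.32% and 2.84%. Red cell-like cells had UMIs of both in 1.94% (0.532% to 4.90%) and 2.21% (0.605% to 5.56%). The pericyte-like shares lay within these intervals. Over the 13 classes in 2 libraries, the joint share of both receptors lay above the product beyond its interval in 4 of the 25 cases that could differ. These were control DMF-like, peribronchial smooth muscle-like, immune-like and red cell-like cells. They held 294, 5, 12 and 4 cells with both receptors, against products of 253, 1.47, 3.99 and 0.61 cells. How often other gene pairs give such a case was not measured, so these cases were not read as a difference between the libraries.

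Ligand genes were found at lower counts, and each had its own set of classes. *Pdgfa* (ENSMUSG00000025856, chr5:138976014-138997370, minus strand), which encodes the ligand of PDGFRα, was highest of the 13 compared classes in pericyte-like cells. Its level there was 443 CPM (396 to 493) in the control and 390 CPM (357 to 425) in the *Gli1 HHIPCKO* library. The next control levels, not separated from their neighbours, were 158 CPM in vascular smooth muscle-like, 150 CPM in mesothelial-like, 136 CPM in ciliated-like and 104 CPM in peribronchial smooth muscle-like cells. Below them, adventitial fibroblast-like, endothelial-like and AT2-like cells at 68.2, 60.2 and 51.5 CPM were not separated from their neighbours in this order, though the intervals of adventitial fibroblast-like (57.3 to 80.5) and AT2-like cells (47.9 to 55.3) did not overlap, and DMF-like cells followed at 41.0 CPM. Immune-like, alveolar fibroblast-like, ALMF-like and red cell-like cells, from 24.6 down to 10.1 CPM, were lowest and not separated from their neighbours. In the *Gli1 HHIPCKO* library ciliated-like cells at 170 CPM, vascular smooth muscle-like cells at 132 CPM and mesothelial-like cells at 124 CPM came after the pericyte-like cells without separation between neighbours, and peribronchial smooth muscle-like cells stood below at 74.99 CPM. AT2-like, endothelial-like and adventitial fibroblast-like cells at 56.4, 55.7 and 50.7 CPM came next and were not separated from their neighbours, and of these the adventitial fibroblast-like cells stood above DMF-like cells at 34.4 CPM. The last 4 classes, from red cell-like at 23.7 CPM to immune-like cells at 16.3 CPM, were not separated from their neighbours. ALMF-like and alveolar fibroblast-like cells, the classes with most *Pdgfra*, were thus among those with least *Pdgfa* in both libraries. No cluster was named for AT1 (alveolar type 1) cells, another epithelial class of the marker list, so *Pdgfa* in them was not measured.

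**Figure D4:**
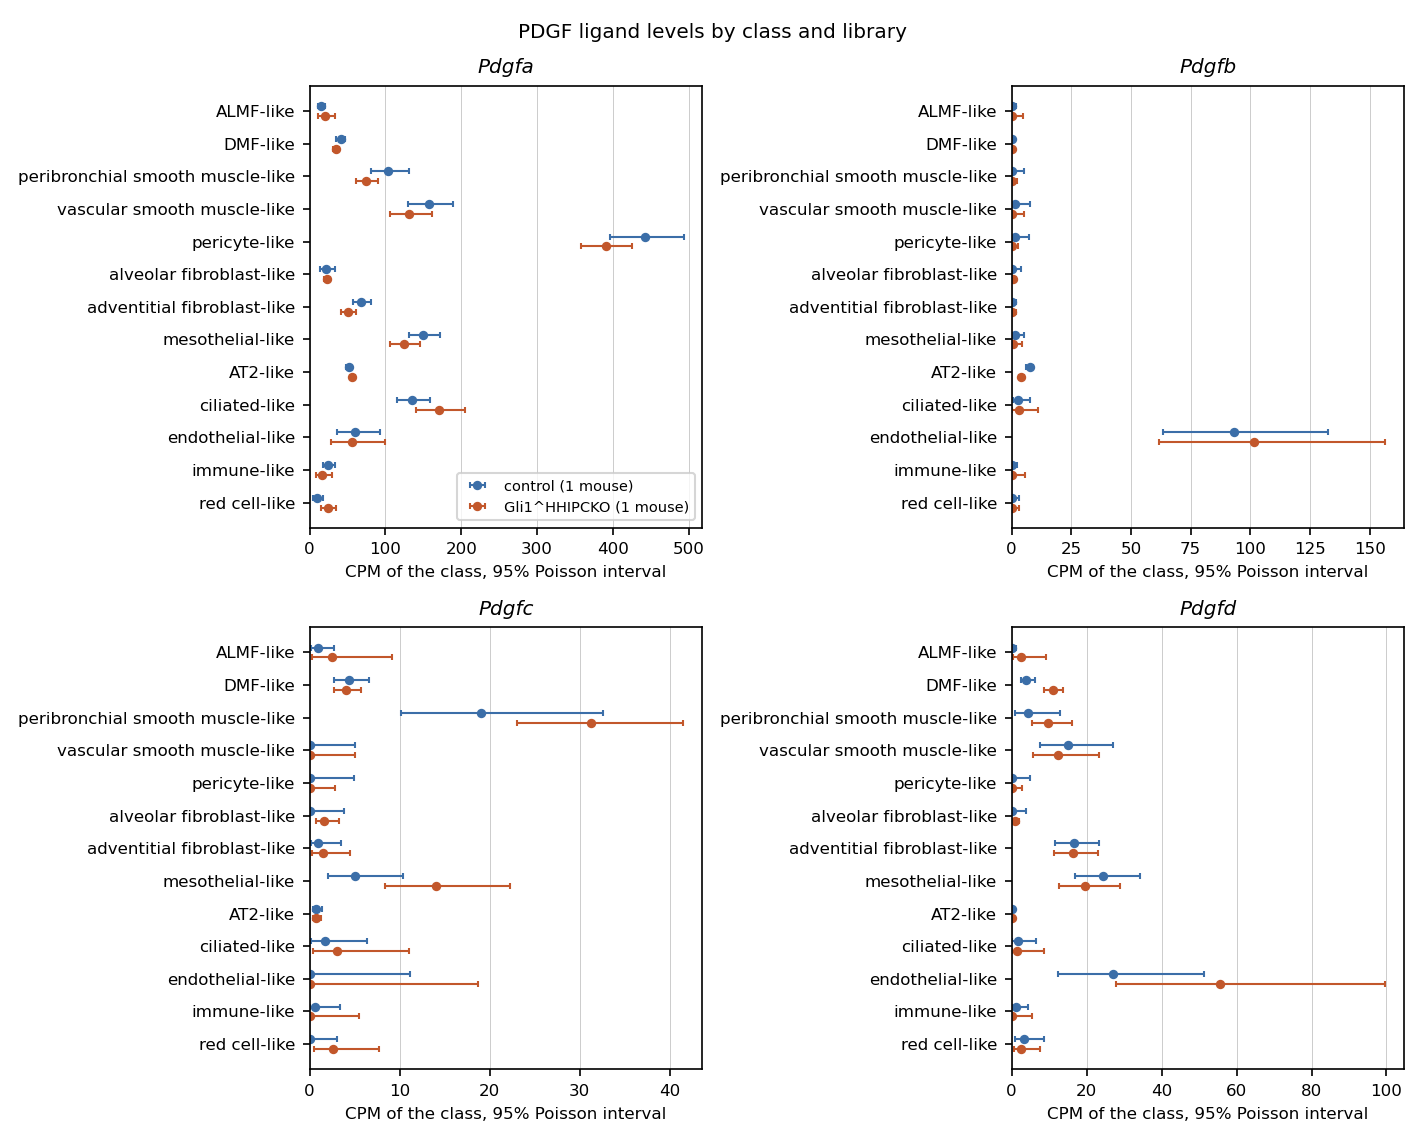
Levels of the 4 PDGF ligand genes (CPM of the class, a separate linear axis for each gene) in 13 cell classes of the control and the *Gli1 HHIPCKO* library, 1 mouse each, with bars for 95% Poisson intervals. *Pdgfa* is highest in pericyte-like, *Pdgfb* in endothelial-like and *Pdgfc* in peribronchial smooth muscle-like cells in both libraries.

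The ratio of *Pdgfa* included 0 in pericyte-like cells, at −0.18 (−0.38 to 0.02), and in AT2-like cells, at 0.13 (−0.01 to 0.27), which held 26.9% of control and 29.0% of *Gli1 HHIPCKO* *Pdgfa* UMIs. It was below 0 in peribronchial smooth muscle-like cells, at −0.47 (−0.91 to −0.02) and in adventitial fibroblast-like cells, at −0.43 (−0.81 to −0.04). The first of these lay closer to 0 in every alternative, between −0.45 and −0.22, and its interval included 0 in 6 of the 7 that gave one. The second lay between −0.61 and −0.35, and its interval included 0 when fibroblasts were named cell by cell. It pools 2 clusters, the larger with 65.9% of control and 81.0% of *Gli1 HHIPCKO* cells of the class. In red cell-like cells 12 and 27 *Pdgfa* UMIs gave a log2 ratio of 1.23 (0.20 to 2.35), and the ratio lay between 0.84 and 2.25 in the alternatives, with an interval that included 0 in 2 of 7. Pericytes had the highest *Pdgfa* of the compared classes. Markers of pericytes summed to 265 CPM (7 of 8 detected, *Vtn* at 0) and 203 CPM (8 of 8) in peribronchial smooth muscle-like cells, led by *Abcc9*. They summed to 496 and 453 CPM (8 of 8) in adventitial fibroblast-like cells, led by *Lamc3*. In red cell-like cells they were at 60.6 CPM (7 of 8, *Vtn* at 0) and 117 CPM (8 of 8), led by *Cox4i2*. Mesothelial markers there, led by *Msln*, were at 9.25 CPM (2 of 6, *Wt1*, *Lrrn4*, *Upk1b* and *Gpm6a* at 0) and 100 CPM (6 of 6), and AT2 markers, led by *Sftpc*, at 39923 and 56489 CPM (8 of 8). In peribronchial smooth muscle-like cells *Hbb-bs* was at 284 and 2948 CPM and AT2 markers at 2936 and 1644 CPM in sum. The part of these markers in the *Pdgfa* ratios was not tested. After thinning, *Pdgfa* was found in 53.7% and 53.2% of pericyte-like cells (53.2% and 48.5% unthinned), 8.89% and 10.5% of AT2-like cells (22.1% and 27.2% unthinned) and 0.485% and 4.97% of red cell-like cells (4.17% and 11.3% unthinned).

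*Pdgfb* (ENSMUSG00000000489, chr15:79995874-80014977, minus strand), the ligand of both receptors, was at 93.3 CPM (63.4 to 132) in control and 101 CPM (61.9 to 156) in *Gli1 HHIPCKO* endothelial-like cells. These values rest on 31 and 20 UMIs in 155 and 100 cells left by a sort that excludes endothelium, and their log2 ratio was 0.12 (−0.77 to 0.98), between −0.12 and 0.51 in the alternatives. The only other compared class with more than 3 *Pdgfb* UMIs in a library was AT2-like, far below the endothelial-like cells at 7.55 CPM (6.21 to 9.10) and 3.999 CPM (3.099 to 5.08). Because AT2-like cells are many, their 111 and 67 UMIs made up 57.8% and 60.9% of all *Pdgfb* UMIs. The AT2-like ratio was −0.92 (−1.38 to −0.47) and lay between −1.09 and −0.89 in the 8 alternatives. AT2-like cells formed 2 clusters, one led by *Ager* and *Sftpc* with 73.8% of the control cells of the class and one led by the immune-related genes *Lcn2*, *Lyz1* and *Chil1* with 72.8% of the *Gli1 HHIPCKO* cells. *Pdgfb* was at 7.63 and 3.25 CPM in the first and at 7.39 and 4.21 CPM in the second, so it was lower in the *Gli1 HHIPCKO* library within each. Endothelial markers in AT2-like cells were at 14.2 CPM with 6 of 8 detected (*Emcn* and *Tie1* at 0) and 12.4 CPM with 7 of 8 detected (*Emcn* at 0), led by *Egfl7* at 11.4 and 9.97 CPM. Club cell markers in them, led by *Scgb1a1*, were at 1406 CPM (6 of 6 detected) and 264 CPM (5 of 6, *Muc5b* at 0), and AT1 markers, led by *Ager*, at 1511 and 1017 CPM (6 of 6). The part of these markers in the *Pdgfb* ratio was not tested. *Pdgfb* UMIs were found in 3.58% and 2.33% of AT2-like cells (1.58% and 0.839% thinned), and in 0 of 216 (0% to 1.69%) and 0 of 194 (0% to 1.88%) red cell-like cells.

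*Pdgfc* (ENSMUSG00000028019, chr3:81036416-81214040, plus strand), a ligand that is activated by proteolysis outside the cell and binds PDGFRα, was highest in peribronchial smooth muscle-like cells, at 19.0 CPM (10.1 to 32.6) and 31.3 CPM (23.1 to 41.5). Mesothelial-like cells came next at 5.03 and 14.1 CPM and DMF-like cells after them at 4.38 and 4.01 CPM, and mesothelial-like cells stood apart from both neighbours only in the *Gli1 HHIPCKO* library. AT2-like cells had 0.749 and 0.716 CPM from 11 and 12 UMIs. The ratio of *Pdgfc* was 0.72 (−0.19 to 1.73) in peribronchial smooth muscle-like cells, between 0.65 and 1.38 in the alternatives, and 1.48 (0.16 to 2.99) in mesothelial-like cells from 7 and 18 UMIs, between 1.20 and 1.80 with an interval that included 0 in 2 of 7. In DMF-like cells it was −0.13 (−0.97 to 0.74) and kept its sign in only 3 of 9 alternatives, reaching 1.04 when fibroblasts were named cell by cell. Markers of peribronchial smooth muscle, where *Pdgfc* is highest, were detected 10 of 10 in mesothelial-like cells at 963 and 444 CPM in sum, led by *Actc1* in the control and *Chrm2* in the *Gli1 HHIPCKO* library, and their part in the *Pdgfc* ratio was not tested. In alveolar fibroblast-like cells there were 0 control and 8 *Gli1 HHIPCKO* UMIs, no difference beyond what 3 counts in the smaller control class allow. Pericyte-like, vascular smooth muscle-like and endothelial-like cells had no *Pdgfc* UMI in either library.

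*Pdgfd* (ENSMUSG00000032006, chr9:6168584-6378850, plus strand), also activated by proteolysis and a ligand of PDGFRβ, was spread over vessel-associated and connective tissue classes. Control levels were 27.1 CPM (12.4 to 51.4) in endothelial-like, 24.4 CPM (16.9 to 34.1) in mesothelial-like, 16.7 CPM (11.5 to 23.3) in adventitial fibroblast-like and 15.1 CPM (7.52 to 27.0) in vascular smooth muscle-like cells, with no class separated from the next. *Gli1 HHIPCKO* levels in these classes were 55.7 CPM (27.8 to 99.7), 19.6 CPM (12.7 to 28.9), 16.4 CPM (11.2 to 23.1) and 12.4 CPM (5.65 to 23.4), and only the endothelial-like cells stood apart from the next class. Their own ratios all included 0. Among the compared classes, the interval excluded 0 only in DMF-like cells, with 20 control and 80 *Gli1 HHIPCKO* UMIs, 3.98 CPM (2.43 to 6.14) and 11.1 CPM (8.78 to 13.8). That log2 ratio was 1.48 (0.76 to 2.26), a 2.78-fold difference, and it was above 0 in all 9 alternatives, between 0.80 when fibroblasts were named cell by cell and 1.73. Peribronchial smooth muscle-like cells, with 3 and 15 UMIs, also had a ratio above 0, at 1.15 (−0.67 to 3.58), between 0.22 and 2.05 in the alternatives. The endothelial-like ratio was above 0 too, and those of mesothelial-like, adventitial fibroblast-like, vascular smooth muscle-like and red cell-like cells were below it. *Pdgfd* was at 4.05 CPM in the control cells of the *Efnb2* cluster and at 13.0 and 7.29 CPM in the *Gli1 HHIPCKO* cells of the *Nnat* and *Socs3* clusters. Markers in DMF-like cells summed to 171 and 481 CPM for alveolar fibroblasts and 90.1 and 123 CPM for vascular smooth muscle. They summed to 350.2 and 287 CPM for adventitial fibroblasts, 90.7 and 71.5 CPM for endothelium and 17.5 and 13.7 CPM for mesothelium. The part of these markers in the *Pdgfd* ratio was not tested. With ALMF-like and DMF-like cells joined the *Pdgfd* ratio was 2.07 (1.35 to 2.85), between 1.95 and 2.21 in the 8 alternatives. ALMF-like cells, with 0 control and 2 *Gli1 HHIPCKO* *Pdgfd* UMIs, made up 37.5% and 10.5% of that joint class. *Pdgfd* was found in 1.18% (0.723% to 1.82%) and 3.44% (2.71% to 4.30%) of DMF-like cells, or 0.786% and 2.10% after thinning. Red cell-like cells had it in 1.85% (0.507% to 4.67%) and 1.03% (0.125% to 3.67%) of cells, or 0% (0% to 1.77%) and 0.552% after thinning, and AT2-like cells in 0 of 2936 and 2 of 2788 cells. The DMF-like shares thus lay within the wide intervals of the red cell-like shares and above the AT2-like ones. No *Pdgfd* UMI was found in 425 control and 715 *Gli1 HHIPCKO* pericyte-like cells, whose medians were 1699 and 1806 UMIs.

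Over the 6 genes and 13 classes, 52 of 78 ratios could be given, and the 26 others had at most 3 UMIs in each library or a count of 0. How often the interval of any gene excludes 0 at these counts was not measured, so the number of ratios with such an interval was not read as a result. Among ratios whose interval excluded 0, those of *Pdgfra* in ALMF-like and DMF-like cells changed sign in an alternative, and 10 of 17 had an interval that included 0 in at least 1.

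Other genes of the pathway were taken from a list of 51 in 5 groups, read in the myofibroblast classes for genes with at least 50 UMIs and called past a log2 ratio of 1 either way. In ALMF-like cells 39 of the 51 were measured, 0 were past the fold upward and 1 downward, and 3 of the 6 PDGF members were measured with 0 past it either way. Of all 8591 genes measured in this class, 1.84% were past the fold upward and 2.54% downward. In DMF-like cells 44 were measured, 2 past the fold upward and 3 downward, and of the PDGF members 5 were measured, 1 (*Pdgfd*) past it upward and 0 downward. Of all 10702 genes there, 2.73% were past it upward and 1.86% downward. Median log2 ratios of the list were −0.14 and −0.08, against 0.02 and 0.00 over all genes, and counts this small were not read as a difference from all genes.

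Genes that process or bind PDGF ligands were led by *Sparc*, a matrix protein that binds PDGF, at 3931 and 3742 CPM in DMF-like cells, for a log2 ratio of −0.07 (−0.10 to −0.04). *Pdgfrl*, a secreted protein that resembles the receptors, was at 378 and 181 CPM in DMF-like cells, for a log2 ratio of −1.06 (−1.17 to −0.96), and at 332 and 224 CPM in ALMF-like cells, −0.57 (−0.80 to −0.33). All 16 adaptors and effectors were measured in both classes and none was past the fold. The phosphatase gene *Ptpn11* had ratios of −0.05 in the ALMF-like class and 0.00 in the DMF-like class, and *Pik3r1*, the regulatory subunit of PI3-kinase, at 0.43 (0.22 to 0.63) and −0.05 (−0.18 to 0.09). Among negative regulators the abundant *Spry1* and *Grb10* were at 0.04 and −0.26 in ALMF-like and at −0.05 and −0.24 in DMF-like cells. *Spry2*, an inhibitor of receptor tyrosine kinase signaling, was past the fold in DMF-like cells at 7.76 and 3.60 CPM, for a log2 ratio of −1.11 (−1.88 to −0.36).

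Early response genes are induced by growth factors and by cell dissociation. *Fos* and *Junb* were at −0.31 (−0.51 to −0.12) and −0.29 (−0.49 to −0.10) in ALMF-like cells and at 0.23 (0.19 to 0.27) and 0.42 (0.38 to 0.46) in DMF-like cells, where the *Socs3* cluster held almost only *Gli1 HHIPCKO* cells. *Myc* in ALMF-like cells was the 1 gene past the fold there, at 36.4 and 17.8 CPM, for a log2 ratio of −1.03 (−1.95 to −0.23). Related ligands and receptors gave the other genes past the fold in DMF-like cells. *Kit*, the stem cell factor receptor of the same kinase family, was at 26.5 and 1.25 CPM from 133 and 9 UMIs, for a log2 ratio of −4.41 (−5.57 to −3.44). *Pgf* and *Vegfd*, ligands of VEGF receptors, were at 22.5 and 48.0 CPM, for a log2 ratio of 1.09 (0.78 to 1.41), and at 2.39 and 6.92 CPM, 1.54 (0.61 to 2.58). *Vegfa* and *Vegfb*, with most UMIs of the group over both libraries, were at −0.34 and −0.01 in ALMF-like and −0.69 and −0.18 in DMF-like cells. In *Gli1 HHIPCKO* DMF-like cells alone, *Pgf* had more UMIs than *Vegfa*, 347 against 310, with *Vegfa* at 42.9 CPM. Whether these 2 levels differ beyond counting error was not measured.

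Genes with a pattern most like each member were ranked by Pearson's r of log2(CPM + 10) over 26 points, the 13 classes in each of the 2 libraries, among 8052 genes with at least 1000 UMIs. Points of a library share its depth and any free RNA, and points of a class share their cell type. *Pdgfra* was most like *Nrcam* (r = 0.941), *Robo2* (0.918), *Fmo2* (0.904) and *Tmem132c* (0.900), the first 2 of them guidance and adhesion receptors of the cell surface. *Pdgfrb* was most like *Gucy1a1* (0.942), a subunit of the nitric oxide receptor and one of the naming markers, and *Loxl3* (0.928), *C1qtnf5* (0.927) and *Ccn4* (0.926). *Pdgfa* was nearest *Ephx1* (0.873), *Fry* (0.838), *Plxnb1* (0.838) and *Actn4* (0.824). For *Pdgfb* the nearest were the endothelial genes *Cldn5* (0.973), *Ccl21a* (0.967), *Egfl7* (0.965) and *Tspan12* (0.902). *Pdgfc* was nearest *Chrm2* (0.832), *Ngb* (0.800), *Kank1* (0.796) and *Scx* (0.780), and *Pdgfd* was nearest *Klf4* (0.882), *Cav1* (0.856), *Sema3f* (0.846) and *Klf3* (0.839). *Cldn5*, *Egfl7*, *Chrm2* and *Scx* were naming markers as well. Between the members, r was 0.144 for *Pdgfra* and *Pdgfrb*, 0.426 for *Pdgfrb* and *Pdgfa*, 0.580 for *Pdgfb* and *Pdgfd* and −0.547 for *Pdgfra* and *Pdgfa*.

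Promoter sequences of 300 bases, 250 before to 50 after a gene's start, were found for 4 of the 6 members (5 promoters) among 32851 promoters of RefSeq GRCm38.p6. Both strands were searched for GACCACCCA (TGGGTGGTC), the motif of the Hedgehog effectors GLI, for the GC box GGGCGG, which reads CCGCCC on the opposite strand, and for TATAAA, which reads TTTATA there, motifs chosen after seeing the data. These occur in 0.253%, 35.7% and 13.6% of all promoters. None of the 5 promoters held the GLI letters. The promoters of *Pdgfra* (chr5:75152001-75152300, plus strand, 51.0% G and C) and *Pdgfd* (chr9:6168236-6168535, plus strand, 56.7% G and C) are shown because both genes had ratios above 0 in DMF-like cells, and 1 of the 2 promoters of *Pdgfa* (chr5:138994895-138995194, minus strand, 73.3% G and C) because its gene was low where *Pdgfra* was high. The median share of G and C over all promoters is 52.7%. Capitals mark the motifs found, 1 TATAAA for *Pdgfd*, 2 CCGCCC for *Pdgfa* and none for *Pdgfra*. A match is a description of the letters in this window only.
Pdgfra: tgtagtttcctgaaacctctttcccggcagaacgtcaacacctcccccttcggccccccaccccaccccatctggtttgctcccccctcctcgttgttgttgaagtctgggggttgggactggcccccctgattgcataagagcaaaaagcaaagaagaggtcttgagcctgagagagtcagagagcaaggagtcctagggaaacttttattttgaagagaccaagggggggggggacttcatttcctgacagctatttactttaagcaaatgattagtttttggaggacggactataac
Pdgfd: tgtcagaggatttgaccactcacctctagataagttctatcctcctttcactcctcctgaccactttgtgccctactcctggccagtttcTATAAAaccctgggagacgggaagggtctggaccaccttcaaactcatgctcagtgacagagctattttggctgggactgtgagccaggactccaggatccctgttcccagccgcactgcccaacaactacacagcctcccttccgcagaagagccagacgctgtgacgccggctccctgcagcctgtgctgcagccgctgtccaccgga
Pdgfa: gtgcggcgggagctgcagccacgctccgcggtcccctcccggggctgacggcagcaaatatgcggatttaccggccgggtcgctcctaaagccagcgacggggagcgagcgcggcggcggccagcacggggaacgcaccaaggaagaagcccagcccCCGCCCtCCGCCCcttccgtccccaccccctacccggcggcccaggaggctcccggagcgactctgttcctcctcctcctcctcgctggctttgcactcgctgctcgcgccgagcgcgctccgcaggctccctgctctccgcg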

How the data were processed

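The deposited values are raw UMI counts per gene and called cell, made by the authors on mm10 with CellRanger 6.1.0 per the file headers and methods (the processing notes list Cell Ranger 3.1.0). Methods name a 5′ kit and the labels a 3′ kit. Cells had to have 200 to 6000 genes and no more than 10% mitochondrial UMIs. Counts scaled to 10000 per cell, 2000 variable genes, 30 principal components, 20 neighbours and Leiden resolution 1 were used without integration, with 61 genes held out, and stromal clusters were clustered again. Clusters were named from markers of 18 classes, by a rule set and once revised after they were seen: 3 markers in 10% of cells, another lineage under 0.4 and a second class under 0.75 of the best score. Also left unnamed were 2 shallow clusters and a DMF-scored cluster led by red cell genes. No doublets were removed from the values reported.

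Alternatives changed the cell filter, doublets (953 control and 1174 *Gli1 HHIPCKO* cells left out), genes in the total, average, resolution, joint clustering, genes held out, naming, thinning, the UMI minimum and centring. The stress-led cluster left out and the joined myofibroblast class were chosen after seeing the data.

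The members and lists were chosen with earlier results of these data known. Named genes are the members, pathway genes past the fold or the 2 most abundant of each group, the 4 genes most like each member, *Hhip* and markers that check a label. Genes leading clusters and *Xist* were named after their values were seen. Gene positions are from GENCODE vM21. Software was leidenalg 0.10.2, igraph 0.11.9, scikit-learn 1.9.0, scipy 1.17.1, numpy 2.4.6, pandas 2.3.3 and matplotlib 3.10.9 on Python 3.11.15.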

Additional observations from a re-analysis of the deposited data

Results flagged for a closer look

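For 3 members, counting intervals lay above 0 in some classes and below 0 in others, and the classes farthest apart are given here. The log2 ratio of *Pdgfra* was 1.52 in red cell-like and −0.79 in peribronchial smooth muscle-like cells. For *Pdgfrb* it was 0.48 in vascular smooth muscle-like and −2.66 in endothelial-like cells, the latter from 32 control and 3 *Gli1 HHIPCKO* UMIs. For *Pdgfa* it was 1.23 in red cell-like and −0.47 in peribronchial smooth muscle-like cells. With 1 mouse per group, the difference between the classes was not tested for any of the 3 genes.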

How the results depend on the processing

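Of 454 log2 ratios over the alternatives, 400 stayed within the counting interval of the reported value, 48 moved beyond it and 6 changed sign from an interval that excluded 0, all 6 for *Pdgfra* in the myofibroblast classes. Of 35 ratios whose interval included 0, 16 changed sign in at least 1 alternative, and of 17 whose interval excluded 0, 10 included it in at least 1. In ALMF-like cells the *Pdgfra* ratio was −0.0837 without the cell filter, −0.00663 at resolution 0.5 and −0.0307 with the members and pathway genes among the variable genes. In DMF-like cells it was −0.29 without the filter, −0.78 with the libraries clustered separately, −0.17 with those genes among the variable genes and 0.31 with fibroblasts named one by one. The *Pdgfrb* ratio in ALMF-like cells was −0.80 without the filter, −0.74 with those genes among the variable genes and −0.47 with cells named one by one. In DMF-like cells the *Pdgfrb* ratio was −0.73 without the filter, −0.69 with separate clustering and −0.81 with those genes among the variable genes. The cause was not tested, and the cells that bear each name differ between settings. Named one by one, 2072 of 8421 fibroblasts changed name, and 753 lay within 0.1 of the next score.

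Control *Pdgfra* in ALMF-like cells was 1469.7 CPM with mitochondrial, ribosomal, haemoglobin and surfactant genes out of the total and 1131 CPM with cells named one by one. In the *Gli1 HHIPCKO* library *Pdgfra* was 1275 CPM without the filter, 1779 CPM with those genes out of the total, 1372 CPM at resolution 0.5, 1346 CPM with the members among the variable genes and 1294 CPM named one by one. *Pdgfrb* in pericyte-like cells was 2177 control and 2064 *Gli1 HHIPCKO* CPM at resolution 0.5, and 2639 *Gli1 HHIPCKO* CPM with those genes out of the total. A smaller total raises a level by construction. Of 1236 levels, 1049 stayed within the interval. Thinning gave *Pdgfra* shares of 85.9% and 92.7% in ALMF-like cells and a *Pdgfrb* share of 100% in control pericyte-like cells. At a minimum of 200 UMIs, 0 of 26 pathway genes were past the fold downward in ALMF-like cells, and 1 upward and 1 downward of 36 in DMF-like cells. The share of all genes past the fold at that minimum is not given here, so these counts were not read as a difference from all genes.

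With libraries clustered separately, 0 *Gli1 HHIPCKO* cells were named vascular smooth muscle-like or pericyte-like, so 31 values could not be given. No paired analysis was possible because each group has 1 library.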

Other observations

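Schwann-like cells, too few to be compared, had *Pdgfa* at 609 CPM (435 to 829) in 26 control cells and 447 CPM (308 to 628) in 25 *Gli1 HHIPCKO* cells. Among club-like cells, 7 *Pdgfa* UMIs were found in 37 control cells and 16 in 13 *Gli1 HHIPCKO* cells. The unnamed clusters held 20.7% of control and 24.6% of *Gli1 HHIPCKO* *Pdgfra* UMIs, and 35.0% and 27.8% of those of *Pdgfd*.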
